A study of Sus scrofa with 12 samples.

Results

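TNF, IL1B, SAA2 and SOD2 are 4 genes tied to inflammatory NF-kB signalling, and they were followed here in aortic valve interstitial cells of the pig, the fibroblast-like cells of the valve leaflet. They were followed through every probe set annotated with 1 of these symbols alone: 6 of the 23999 probe sets on the array, 1 for TNF, 2 for IL1B, 2 for SAA2 and 1 for SOD2. RNA from 12 cultures or isolates was measured on Affymetrix porcine arrays, with 3 biological replicates in each of 4 groups. Untreated P2 cells were cultures on tissue culture polystyrene (TCPS), grown through 2 passages with 15% fetal bovine serum and then held in 1% serum. The 8 h group and the 24 h group were the same kind of P2 culture given porcine TGF-β1 at 5 ng/ml, a cytokine known to turn fibroblasts into contractile, matrix-forming myofibroblasts, for those times before collection. All P2 cultures, treated or not, were collected on day 3. P0 cells came straight from collagenase II digestion of adult aortic valves, with no culture and no treatment. Whether a replicate is 1 animal or a pool is not stated, so p-values measure only the spread between these samples, and neither P0 nor P2 cells were described as sorted.

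TNF and interleukin-1β are secreted alarm cytokines made chiefly by macrophages, although stressed fibroblasts can make them too. Through their receptors they activate the IKK kinase complex, which frees NF-kB from its inhibitor IκBα and lets it switch on cytokines, chemokines, adhesion molecules and its own inhibitors. SOD2, the superoxide dismutase of the mitochondrial matrix, is a classical NF-kB target, and serum amyloid A (SAA) is an acute-phase apolipoprotein induced by NF-kB together with C/EBP factors and STAT3.

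Values are log2 expression values as deposited, so a difference of 1 is a 2-fold change. Reporter control probe sets, which match no pig gene, gave the background: 95% of their values lay under 4.58, called the control level below, and a group mean under it carries only a bound. Probe sets were called at a limma adjusted p under 0.05 over all 17638 tested, in a fit of group means without pairing. All 6 probe sets passed the filter on low values (over 4 in at least 3 arrays). TNF was over 4 in 10 arrays and the weaker SAA2 probe set in 11. The remaining 4 probe sets were over 4 on all 12.

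The labelled cell type was checked against marker genes. All 10 measured markers of valve interstitial cells and fibroblasts had group means over the control level in all 4 groups, with VIM, the mesenchymal intermediate filament, at 15.57 in untreated P2 and 15.62 in P0 cells. Not all 10 were as even: between untreated P2 and P0 cells 2 were called higher, 5 lower and 3 not called (median log2 fold change -0.31). Among all genes 42.1% were higher and 24.2% lower. S100A4 (5.10) and ACTA2 (2.89) were higher in untreated P2, and THY1 (-1.89) and DCN (-1.64) were among those lower. Macrophage and monocyte markers were present as well, most of all in P0. The mean over 17 of them ran from 6.48 to 6.88 in untreated P2, 6.27 to 6.70 at 8 h and 6.10 to 6.52 at 24 h, against 8.54 to 8.93 in P0. Markers of neutrophils (3 measured) and lymphocytes (4 measured) were all under the control level in every group. The 3 P2 arrays numbered 3 stood apart in endothelial markers: their list mean was 5.30 untreated, 5.33 at 8 h and 5.17 at 24 h, while the other P2 arrays lay between 6.63 and 7.31. Values without these 3 arrays are given for the members in culture and wherever leaving them out ended or made a call of a named gene.

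**Figure D1:**
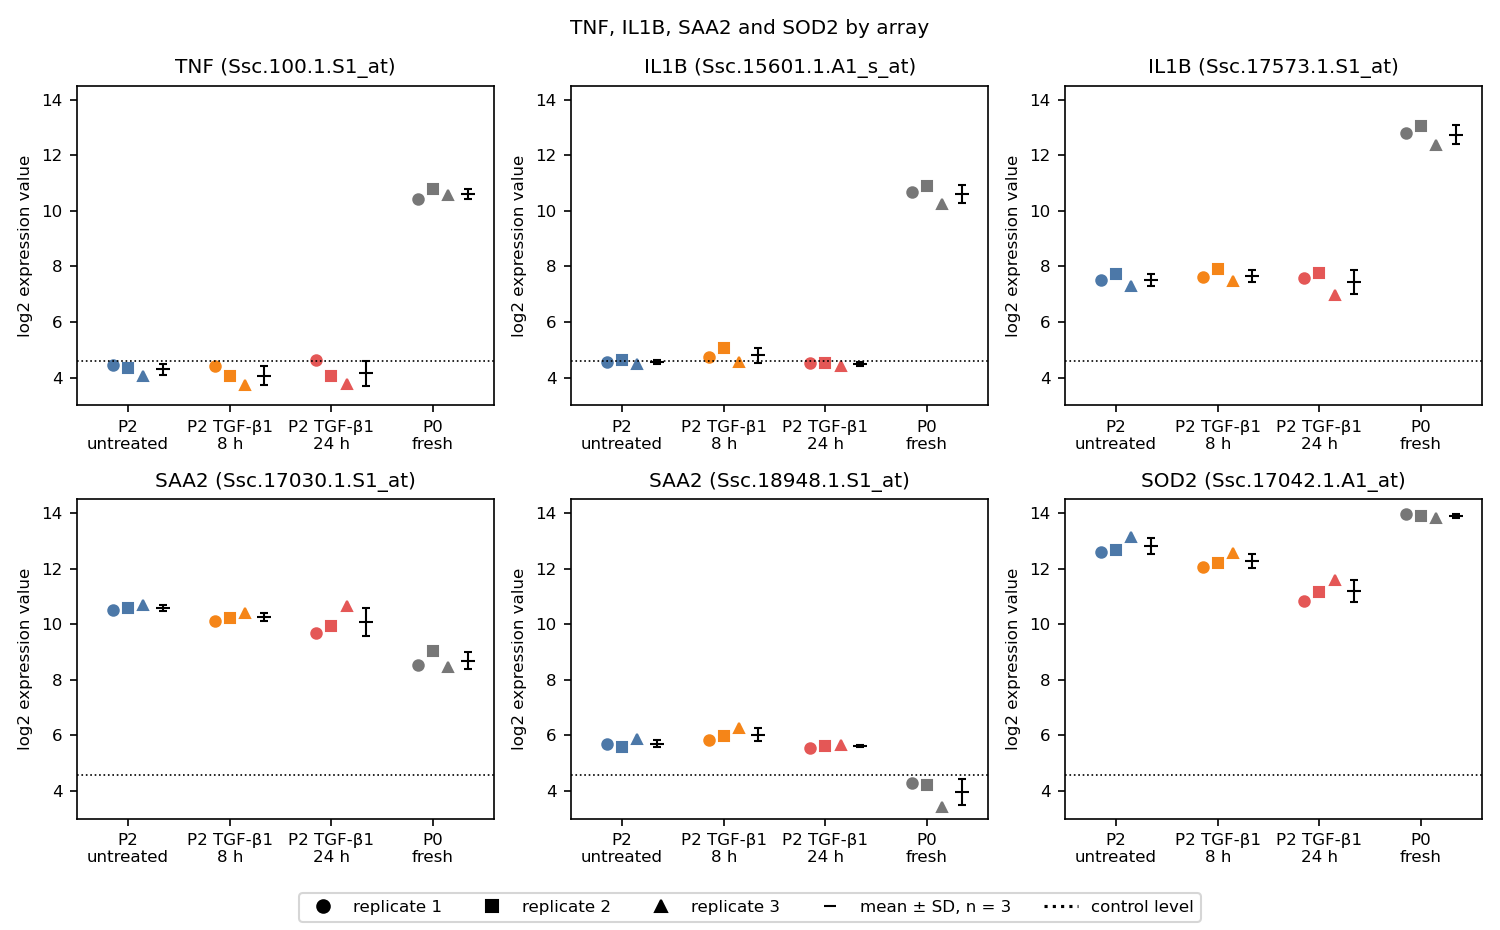
Log2 expression values (vertical axis) of the 6 probe sets on each of the 12 arrays, by group; marker shape gives the replicate number, black marks give mean ± SD (n = 3), and the dotted line is the control level of 4.58. TNF and both IL1B probe sets are high in P0 only, both SAA2 probe sets are higher in every P2 group, and SOD2 values lie in the order untreated, 8 h, 24 h without overlap.

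TNF was among the most reduced transcripts of cultured cells. It read 4.47, 4.35 and 4.07 in untreated P2 replicates 1, 2 and 3, against 10.44, 10.78 and 10.59 in P0. No P2 value came near any P0 value, and every untreated value lay under the control level. TNF therefore fell at least 64.8-fold in culture (log2 fold change -6.31 as fitted, adjusted p = 1.19e-09, 3 against 3 arrays), a change larger than that of 99.9% of tested probe sets. In this comparison 59.4% of all probe sets were called, 25.8% lower and 33.6% higher, and the 2 groups did not overlap at 65.1%. Without the P2 arrays numbered 3 the change of TNF was -6.20. In bulk RNA, fewer cells of a type and less RNA per cell cannot be told apart. Here and below, fell and rose in culture mean lower and higher in untreated P2 than in P0 cells. P0 RNA was taken only straight after digestion, so a change during isolation and a change in culture cannot be told apart.

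TGF-β1 did not bring TNF back to a measurable level. It read 4.43, 4.06 and 3.72 at 8 h and 4.64, 4.05 and 3.77 at 24 h. Of these 6 values only 24 h replicate 1 lay over the control level. The 8 h and 24 h differences from untreated cells were -0.22 (95% interval -0.72 to 0.27, adjusted p = 0.706) and -0.14 (-0.64 to 0.36, adjusted p = 0.790). Since all 3 P2 means were under the control level, no fold is given for either.

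IL1B, the gene of interleukin-1β, carried 2 probe sets. The brighter one read 7.50, 7.72 and 7.29 in untreated P2, against 12.80, 13.05 and 12.38 in P0. The groups lay far apart, yet unlike TNF this signal stayed well over the control level in P2. IL1B fell 37.8-fold on this probe set (-5.24 ± 0.225 SE, adjusted p = 4.19e-09). The dimmer one, of a type whose probes can match several transcripts, read 4.56, 4.62 and 4.49 in untreated P2 and 10.69, 10.89 and 10.24 in P0. With its P2 mean just under the control level it fell at least 64.5-fold (adjusted p = 2.04e-10). Without the P2 arrays numbered 3 the changes were -5.13 for the brighter and -6.02 for the dimmer probe set.

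Under TGF-β1 the brighter IL1B probe set read 7.61, 7.89 and 7.49 at 8 h and 7.57, 7.78 and 6.96 at 24 h. These ranges overlap the untreated one. The difference from untreated cells was 0.16 at 8 h (95% interval -0.33 to 0.65, adjusted p = 0.812) and -0.07 at 24 h (-0.56 to 0.42, adjusted p = 0.904). The dimmer probe set read 4.75, 5.07 and 4.57 at 8 h and 4.53, 4.53 and 4.40 at 24 h. Its 24 h arrays all lay under its 8 h arrays, a separation met at 13.7% of probe sets, and the difference did not pass (adjusted p = 0.629). Its 24 h mean lay under the control level, so no size is given. The pig genome also holds IL1B2, a close relative of IL1B that RefSeq lists under the synonym IL1B, so hybridisation from both genes may be mixed in these values.

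**Figure D2:**
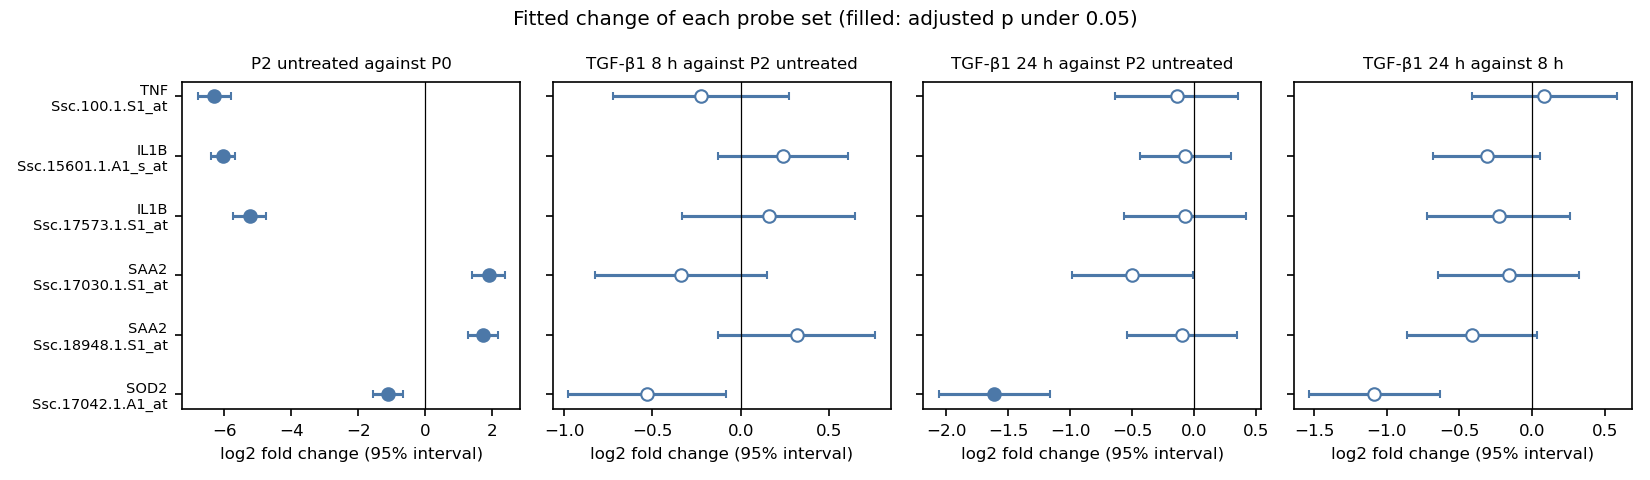
Fitted log2 fold change (horizontal axis, first group minus second) with its 95% interval for each of the 6 probe sets in each of the 4 comparisons; filled points have an adjusted p under 0.05. All 6 are called in culture, from -6.31 for TNF to 1.91 for SAA2, while under TGF-β1 only SOD2 at 24 h is called.

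The other ligands of the 2 families were followed through a list of 11 genes, of which 5 had a probe set of their own and 4 passed the filter. In culture 2 of these 4 fell and 0 rose, where 66.3% of all genes tested were called, 24.2% lower and 42.1% higher, and their median log2 fold change was -0.48 against 0.20 over all genes. IL1A, the cell-bound sister cytokine of IL1B, read 6.13, 6.07 and 4.75 in untreated P2 against 10.19, 10.72 and 10.34 in P0. Its lowest P2 value was on the array numbered 3, and no P2 array reached the P0 range. IL1A fell (-4.76 ± 0.580, adjusted p = 1.86e-05). IL18, the inflammasome cytokine made constitutively in many cells, fell as well (-0.71 ± 0.119, adjusted p = 0.000253). Of the 4, 0 were called under TGF-β1, at 8 h, where 5.59% of genes tested were called (2.74% higher, 2.84% lower), or at 24 h, where 10.1% were called (4.42% higher, 5.67% lower).

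Receptors and adaptors did not move one way in culture. Of 13 tested, 6 fell, 5 rose and 2 were not called, with a median of -0.35. Over all genes 66.3% were called, 24.2% lower and 42.1% higher. TLR2, the receptor for bacterial lipoproteins, and TLR4, the endotoxin receptor, fell most. TLR2 changed by -3.97 (SE 0.130, adjusted p = 6.04e-10) and TLR4 by -2.70 (SE 0.107, adjusted p = 2.34e-09). TNFRSF1A, the main TNF receptor of fibroblasts, fell less (-1.23 ± 0.128). FADD, the death-domain adaptor below TNF receptors, rose (1.55 ± 0.132, adjusted p = 1e-06).

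Processing enzymes and the core of the pathway were thinly covered. Caspase-1 (CASP1), which cuts pro-interleukin-1β, fell at least 2.17-fold in culture (adjusted p = 0.00207), to a mean of 4.44 that lies under the control level. ADAM17, the protease that sheds TNF from the cell surface, rose (0.54 ± 0.111, adjusted p = 0.0011), as did GSDMD, the pore protein through which interleukin-1β leaves cells (0.59 ± 0.154, adjusted p = 0.00548). Among 8 listed IKK and NF-kB subunits only IKBKG, the regulatory IKK subunit, could be tested, and it rose (0.94 ± 0.220, adjusted p = 0.00291).

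The NF-kB feedback inhibitors fell in 5 of 7 cases and rose in 1, with a median of -0.91, where 24.2% of all genes fell and 42.1% rose. ZFP36, the RNA-binding protein that marks TNF mRNA for decay, stood at 7.55 in untreated P2 and 13.54 in P0 (-5.99 ± 0.134, adjusted p = 4.32e-11). NFKBIA, which encodes IκBα, stood at 9.88 in untreated P2 and 13.79 in P0 (-3.91 ± 0.173, adjusted p = 5.23e-09). NFKBIB, another IκB, and CYLD, a deubiquitinase that dampens the pathway, also fell (-1.99 ± 0.116 and -0.91 ± 0.103).

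Of 21 tested NF-kB target genes 15 fell, 2 rose and 4 were not called in culture, with a median of -1.79. The shares over all genes were 24.2% lower and 42.1% higher. IRF1, an interferon-related transcription factor, fell (-5.27 ± 0.184, adjusted p = 9.46e-10). The neutrophil chemokine CXCL2 (-5.07 ± 0.351, adjusted p = 1.76e-07) and the stress gene GADD45B (-4.05 ± 0.181) fell too. SELE, an endothelial adhesion molecule, was at least 13.5-fold lower, but it passed the filter only through P0, which fixed its direction. Without SELE the count was 14 of 20 lower, with a median of -1.62. The 2 that rose were PLAU and BCL2L1, named after their values were seen, and that count was 1 without P0 replicate 1 or without untreated replicate 1.

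The macrophage and monocyte list moved with these genes. Of its 16 tested members 13 fell, 1 rose and 2 were not called in culture, with a median of -2.20. Among all genes 24.2% fell and 42.1% rose. CD163, a scavenger receptor of tissue macrophages, stood at 5.41 in untreated P2 and 10.95 in P0 (-5.55 ± 0.478, adjusted p = 1.06e-06). C1QC, a complement subunit made by macrophages, stood at 8.39 in untreated P2 and 12.37 in P0 (-3.98 ± 0.235). The 1 that rose was SLA-DMA, named after its value was seen, and another of its probe sets was called in the opposite direction. The integrin ITGAM lay under the control level in all 4 groups. The part of the macrophage change in the falls of TNF and IL1B was not tested.

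**Figure D3:**
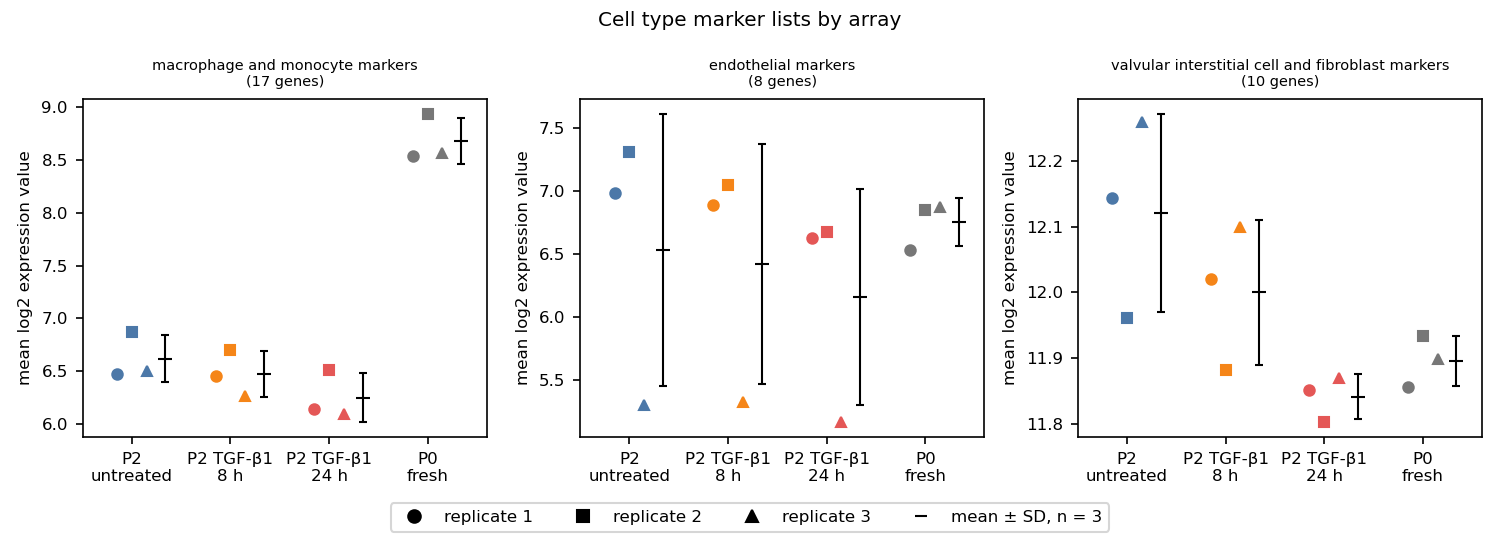
Mean log2 expression value (vertical axis) of 3 marker lists on each array, by group; marker shape gives the replicate number and black marks give mean ± SD (n = 3). Macrophage markers lie between 6.10 and 6.88 on P2 arrays and between 8.54 and 8.93 on P0 arrays, and endothelial markers are lowest on the 3 P2 arrays numbered 3.

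SAA2 moved against the other members: it was higher in cultured cells. The brighter of its 2 probe sets read 10.50, 10.57 and 10.68 in untreated P2, against 8.53, 9.03 and 8.47 in P0. Untreated P2 values lay close together and clear of P0, a separation met at 65.1% of probe sets. SAA2 rose 3.75-fold on this probe set (1.91 ± 0.223, adjusted p = 1.35e-05). The dimmer one read 5.67, 5.58 and 5.85 in untreated P2 and 4.26, 4.20 and 3.40 in P0. Its P0 mean was under the control level, and it rose at least 2.17-fold (adjusted p = 1.36e-05). Without the P2 arrays numbered 3 the changes were 1.86 and 1.67.

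The brighter SAA2 probe set was lower in treated cultures on most arrays, without passing the test. It read 10.11, 10.23 and 10.40 at 8 h, all under the untreated arrays, a separation met at 25.5% of probe sets. The 8 h difference was -0.34 (95% interval -0.82 to 0.15, adjusted p = 0.510). At 24 h the probe set read 9.69, 9.93 and 10.65. Replicates 1 and 2 lay lowest of all P2 arrays while replicate 3 lay in the untreated range. The 24 h difference was -0.50 (-0.98 to -0.01, adjusted p = 0.210). It hung on 24 h replicate 3: without that array it was -0.78 with an adjusted p of 0.0232. Without all 3 P2 arrays numbered 3 it was -0.73 (adjusted p = 0.0737).

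The dimmer SAA2 probe set did not move the same way at 8 h. It read 5.82, 5.96 and 6.28 at 8 h and 5.56, 5.62 and 5.63 at 24 h. The difference from untreated cells was 0.32 at 8 h (95% interval -0.13 to 0.76, adjusted p = 0.495) and -0.10 at 24 h (-0.54 to 0.35, adjusted p = 0.843). The difference between the 2 probe sets was not tested. RefSeq places SAA4 and SAA3 beside SAA2 on the same chromosome in assembly Sscrofa11.1, and the genes of this family are close in sequence, so the probe sets may not report SAA2 alone.

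Other acute-phase genes did not share the rise of SAA2. Of 24 further genes on the list 17 had a probe set of their own, and 8 of these, among them CRP, HP and SERPINA1, did not pass the filter in these cells. Of the 9 tested 7 fell, 0 rose and 2 were not called in culture, with a median of -1.75. Over all genes 24.2% fell and 42.1% rose. C3, the central complement protein, stood at 9.32 in untreated P2 and 14.09 in P0 (-4.77 ± 0.327, adjusted p = 1.64e-07). The protease trap A2M fell at least 7.87-fold, and ITIH4 changed by -1.95 (SE 0.273). The iron carrier transferrin (TF), at least 3.26-fold lower, passed the filter only through P0, which fixed its direction, and without it 6 of 8 fell, with a median of -1.60. At 8 h and 24 h 0 of the 9 were called, where 5.59% and 10.1% of all genes were. The smallest p belonged to C3 at 8 h (-0.62, adjusted p = 0.379) and to the pentraxin PTX3 at 24 h (1.14, adjusted p = 0.0552). Both depended on the fit. With the replicate block over the 9 P2 arrays C3 passed at 8 h (adjusted p = 0.00965), and 1 of the 9 was called lower at each time. PTX3 averaged 11.2 at 24 h, against 9.70, 9.46 and 11.04 in untreated replicates 1, 2 and 3, of which the last lay apart. It passed without that array (1.62, adjusted p = 0.00151), without all P2 arrays numbered 3 (1.73, 0.00295), with array weights (1.38, 0.00736) and with the stricter filter (0.0416).

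The signalling list that carries interleukin-6 to acute-phase genes had 4 falls and 1 rise among 8 in culture, with a median of -0.68, where 66.3% of all genes were called. SOCS3, the feedback inhibitor of STAT3 signalling, was at least 2.15-fold lower, but it was over the filter on no P2 array and passed only through P0, which fixed its direction. Without it 3 of 7 fell and 1 rose, with a median of -0.27. CEBPB and CEBPD, the C/EBP factors of the acute-phase response, fell (-1.09 ± 0.123 and -1.08 ± 0.177). CEBPD was the 1 gene of this list called under TGF-β1, where 5.59% of all genes were called at 8 h and 10.1% at 24 h. It changed by -1.48 at 8 h (SE 0.177, adjusted p = 0.00143) and by -1.08 at 24 h (adjusted p = 0.00355).

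SOD2 was the 1 member called under TGF-β1, and it was lower in culture as well. It read 12.62, 12.66 and 13.15 in untreated P2 replicates 1, 2 and 3, against 13.97, 13.90 and 13.83 in P0. The groups did not overlap, as at 65.1% of probe sets, and the P0 replicates differed by much less than the P2 replicates. SOD2 fell 2.13-fold in culture (-1.09 ± 0.205, adjusted p = 0.000601), a change larger than that of 75.3% of probe sets. Without the P2 arrays numbered 3, where SOD2 was highest, the change was -1.27 (adjusted p = 3.8e-05).

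TGF-β1 lowered SOD2 further. It read 12.07, 12.21 and 12.56 at 8 h and 10.82, 11.17 and 11.59 at 24 h. Each 8 h array lay under each untreated array, and each 24 h array under each 8 h array. Such a separation was met at 25.5% of probe sets at 8 h and 25.3% at 24 h against untreated cells, and, as above, at 13.7% between 24 h and 8 h. At 24 h SOD2 fell 3.06-fold against untreated cells (-1.61 ± 0.205, adjusted p = 0.000848), more than 99.2% of probe sets changed, where 8.49% of probe sets were called (4.27% higher, 4.22% lower). Without the P2 arrays numbered 3 the change was -1.64 (adjusted p = 0.000941). Among marker genes at 24 h, 2 of 16 for macrophages fell (median -0.35), 1 of 10 for valve interstitial cells and fibroblasts fell (median -0.15) and 1 of 7 for endothelium rose (median -0.21). Over all genes 5.67% fell and 4.42% rose. With the replicate block 7 of the 16 macrophage markers were lower, in the fit of all arrays and in that of the 9 P2 arrays, and in the P2 fit 4 of the 10 interstitial and fibroblast markers were lower and 1 higher. Leaving out the P2 arrays numbered 3 left 1 macrophage marker lower. The interstitial marker was COL3A1, at a 24 h mean of 4.79, near the control level, and its call was lost in 5 alternatives. Over all alternatives the count of interstitial and fibroblast markers lower ran from 0 to 4. For endothelial markers lower it ran from 0 to 2. The part of these markers in the fall of SOD2 was not tested.

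At 8 h the SOD2 difference was -0.53 (95% interval -0.98 to -0.08) and did not pass over all probe sets (adjusted p = 0.195), where 5.07% were called, 2.53% in each direction. P2 arrays of the same replicate number resembled each other, and SOD2 showed this plainly: replicate 3 was highest and replicate 1 lowest in all 3 P2 groups. The differences within a number were -0.55, -0.45 and -0.59 at 8 h and -1.79, -1.49 and -1.56 at 24 h for replicates 1, 2 and 3. With the number as a block in a fit of the 9 P2 arrays, the 8 h fall passed (adjusted p = 0.0118). In a block fit of all 12 arrays, which also ties P0 arrays by number, the 8 h fall did not pass (adjusted p = 0.0707).

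Between 24 h and 8 h SOD2 differed by -1.09 (95% interval -1.53 to -0.64), more than 99.6% of probe sets. In that comparison 41 probe sets were called, 0.232% of those tested (0.142% higher, 0.0907% lower), and SOD2 was not among them (adjusted p = 0.0674). With the replicate block it passed, at an adjusted p of 0.0168 over all 12 arrays and 0.00339 over the 9 P2 arrays. It also passed without untreated replicate 3 (adjusted p = 0.0454), without 24 h replicate 3 (-1.29, 0.0304) and without all 3 arrays numbered 3 (-1.14, 0.0465).

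**Figure D4:**
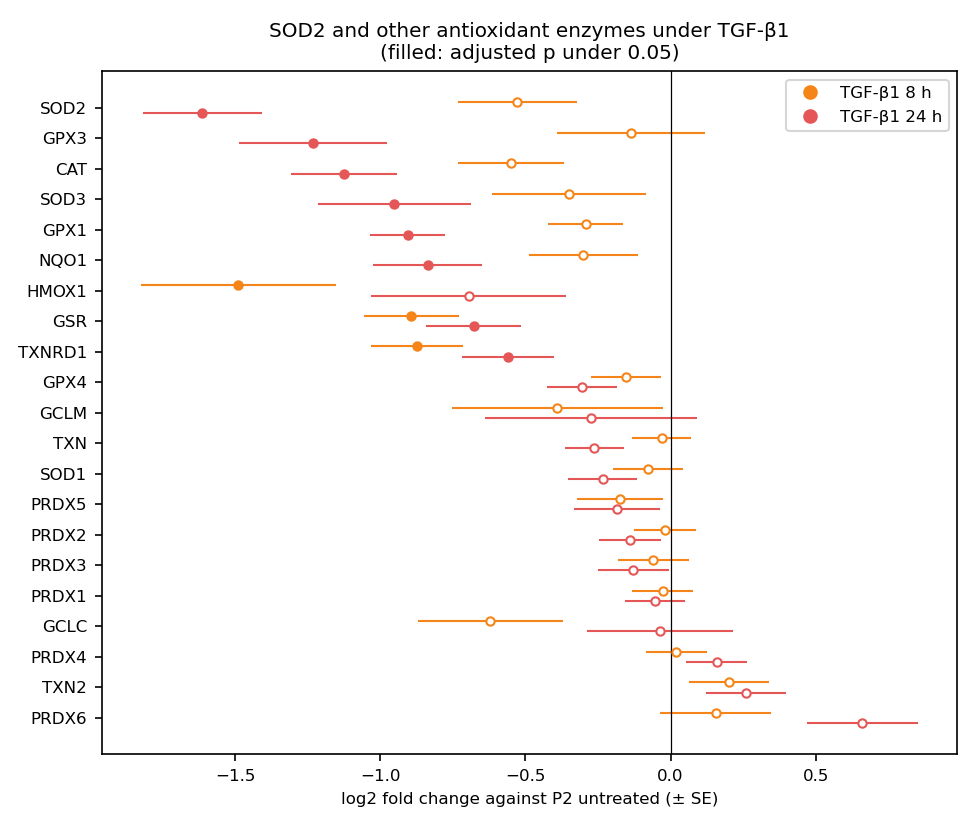
Log2 fold change ± SE (horizontal axis) of SOD2 and 20 other antioxidant enzyme genes at 8 h and at 24 h of TGF-β1 against untreated P2 cells; filled points have an adjusted p under 0.05. SOD2 has the lowest value at 24 h, -1.61, and 7 other genes are called lower at 24 h.

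Other antioxidant enzymes mostly rose in culture, and those called under TGF-β1 fell. Of 20 tested, 13 rose, 4 fell and 3 were not called in culture, with a median of 0.77. Among all genes 42.1% rose and 24.2% fell, with a median of 0.20. GSR, which regenerates glutathione, rose most (2.24 ± 0.163, adjusted p = 2.63e-07), followed by GCLM, a subunit of the enzyme that starts glutathione synthesis (2.08 ± 0.364), and the quinone reductase NQO1 (1.76 ± 0.188). The haem oxygenase HMOX1 fell (-1.96 ± 0.336). At 24 h of TGF-β1 7 of the 20 fell and 0 rose, with a median of -0.27 against -0.01 over all genes, where 10.1% of genes were called, 5.67% lower and 4.42% higher. The count of rises was 1 with the stricter filter, with array weights, in both block fits and without 8 h replicate 3.

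The largest falls at 24 h were in GPX3, the secreted glutathione peroxidase (-1.23 ± 0.255, adjusted p = 0.0117), catalase (CAT, -1.13 ± 0.183, adjusted p = 0.00345), SOD3, the extracellular superoxide dismutase (-0.95 ± 0.264, adjusted p = 0.0464), and GPX1, the cytosolic glutathione peroxidase (-0.91 ± 0.130, adjusted p = 0.00171). CAT read 11.24, 11.07 and 11.88 untreated, 10.69, 10.82 and 11.03 at 8 h, and 10.26, 10.41 and 10.14 at 24 h. Its groups also lay in that order without overlap. Separations from untreated cells were met at 25.5% of probe sets at 8 h and 25.3% at 24 h, and between the times at 13.7%. Over all alternatives the count of 7 ran from 2 to 10. It became 4 without untreated replicate 1, 24 h replicate 1 or 24 h replicate 2, 2 without untreated replicate 3, and 3 without all P2 arrays numbered 3. GPX3 (adjusted p = 0.112) and SOD3 (0.237) were among the calls lost without those 3 arrays, and SOD3 was lost in 13 alternatives in all. At 8 h 3 of the 20 fell, where 2.84% of all genes fell. They were HMOX1 (-1.49 ± 0.336), GSR (-0.89 ± 0.163) and TXNRD1, the cytosolic thioredoxin reductase (-0.87 ± 0.159). That count was 5 with the replicate block over the 9 P2 arrays and 1 without the P2 arrays numbered 3, where GSR (adjusted p = 0.101) and TXNRD1 (0.0754) were lost. HMOX1 was lost without untreated replicate 3 (adjusted p = 0.0621) and without 8 h replicate 1 (0.108) or 2 (0.0716). Its call was also lost with values raised to the control level (0.0579) and with P2 arrays alone (0.0607).

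NF-kB target genes called under TGF-β1 went both ways. Of 21 target genes 3 fell and 1 rose at 8 h (median 0.05). At 24 h 3 fell and 2 rose (median 0.06). Over all genes, 2.84% were called lower and 2.74% higher at 8 h, and 5.67% lower and 4.42% higher at 24 h. VCAM1, a leukocyte adhesion molecule, fell at 8 h (-1.52 ± 0.223, adjusted p = 0.00408) and at 24 h (-3.03 ± 0.223, adjusted p = 3.91e-05). It was the 1 gene on any of the 9 pathway lists called between 24 h and 8 h, where 0.283% of genes were called, 0.15% higher and 0.133% lower (-1.51 ± 0.223, adjusted p = 0.0231, but 0.0529 without the P2 arrays numbered 3). PLAU, the urokinase protease, fell at 8 h (-1.41 ± 0.293, adjusted p = 0.0185), and IRF1 fell to means of 7.32 at 8 h and 7.42 at 24 h, against 8.32 in untreated cells (adjusted p = 0.0104 and 0.0107). IL6 fell at 24 h (-1.05 ± 0.221, adjusted p = 0.0124), a call lost without untreated replicate 1 (adjusted p = 0.0544). ICAM1, another adhesion molecule, rose at 24 h (1.13 ± 0.230, adjusted p = 0.0105), and GADD45B rose at both times (1.08 and 0.98). PLAU at 8 h was lost without untreated replicate 1 (adjusted p = 0.0719), untreated replicate 3 (0.063) or 8 h replicate 3 (0.0695). With the P2 arrays numbered 3 left out, IRF1 (adjusted p = 0.056) and GADD45B (0.94, 0.0577) were lost at 8 h, so that 0 targets were called higher. With the replicate block over the 9 P2 arrays 5 targets fell and 3 rose at 8 h, and 6 fell and 4 rose at 24 h. Among 7 feedback inhibitors NFKBIA alone was called, at -0.90 at 8 h (SE 0.173, adjusted p = 0.0131) and -1.02 at 24 h (adjusted p = 0.00415). The 8 h call of NFKBIA was lost without untreated replicate 3 (adjusted p = 0.0531).

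Among receptors and adaptors 3 of 13 fell at 8 h, where 2.84% of all genes fell, and 2 of 13 at 24 h, where 5.67% fell. Among processing enzymes 1 of 3 fell at 8 h and 0 at 24 h. At 8 h IL1R1, the signalling receptor of interleukin-1 (-0.93 ± 0.189, adjusted p = 0.0167), TNFRSF1B, the other TNF receptor (-0.79 ± 0.178, adjusted p = 0.0255), CD14, the endotoxin co-receptor (-0.59 ± 0.154, adjusted p = 0.0485), and ADAM17 (-0.49 ± 0.111, adjusted p = 0.0257) fell. At 24 h CD14 (-0.73, adjusted p = 0.0128) and TLR2 (-0.52, adjusted p = 0.0296) fell. Of the 13 receptors and adaptors the count of falls at 8 h was 0 without untreated replicate 1 or 3, without 8 h replicate 1 or 3, or without all P2 arrays numbered 3, and 1 without untreated replicate 2 or 8 h replicate 2. With those 3 arrays left out the adjusted p at 8 h was 0.145 for IL1R1, 0.129 for TNFRSF1B and 0.197 for CD14, and at 24 h 0.0584 for TLR2. The 8 h call of CD14 was lost in 15 of 22 alternatives, among them no filter (adjusted p = 0.0633) and centred array medians (0.0513). ADAM17 was lost at 8 h without untreated replicate 1 or 2 or any 1 of the 8 h replicates (adjusted p = 0.0626 to 0.0938) and without the P2 arrays numbered 3 (0.074). At 24 h ADAM17 was called lower in the block fits (-0.37, adjusted p = 0.0437 over all arrays and 0.0248 over P2 arrays). It was also called lower at 24 h with the stricter filter (adjusted p = 0.0415), values raised to the control level (0.0308), array weights (0.0164) and without untreated replicate 3 (0.0423). For receptors at 24 h the count of 2 was 0 without untreated replicate 1, and 1 without untreated replicate 3, without 24 h replicate 1 or 2, or without all P2 arrays numbered 3.

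**Figure D5:**
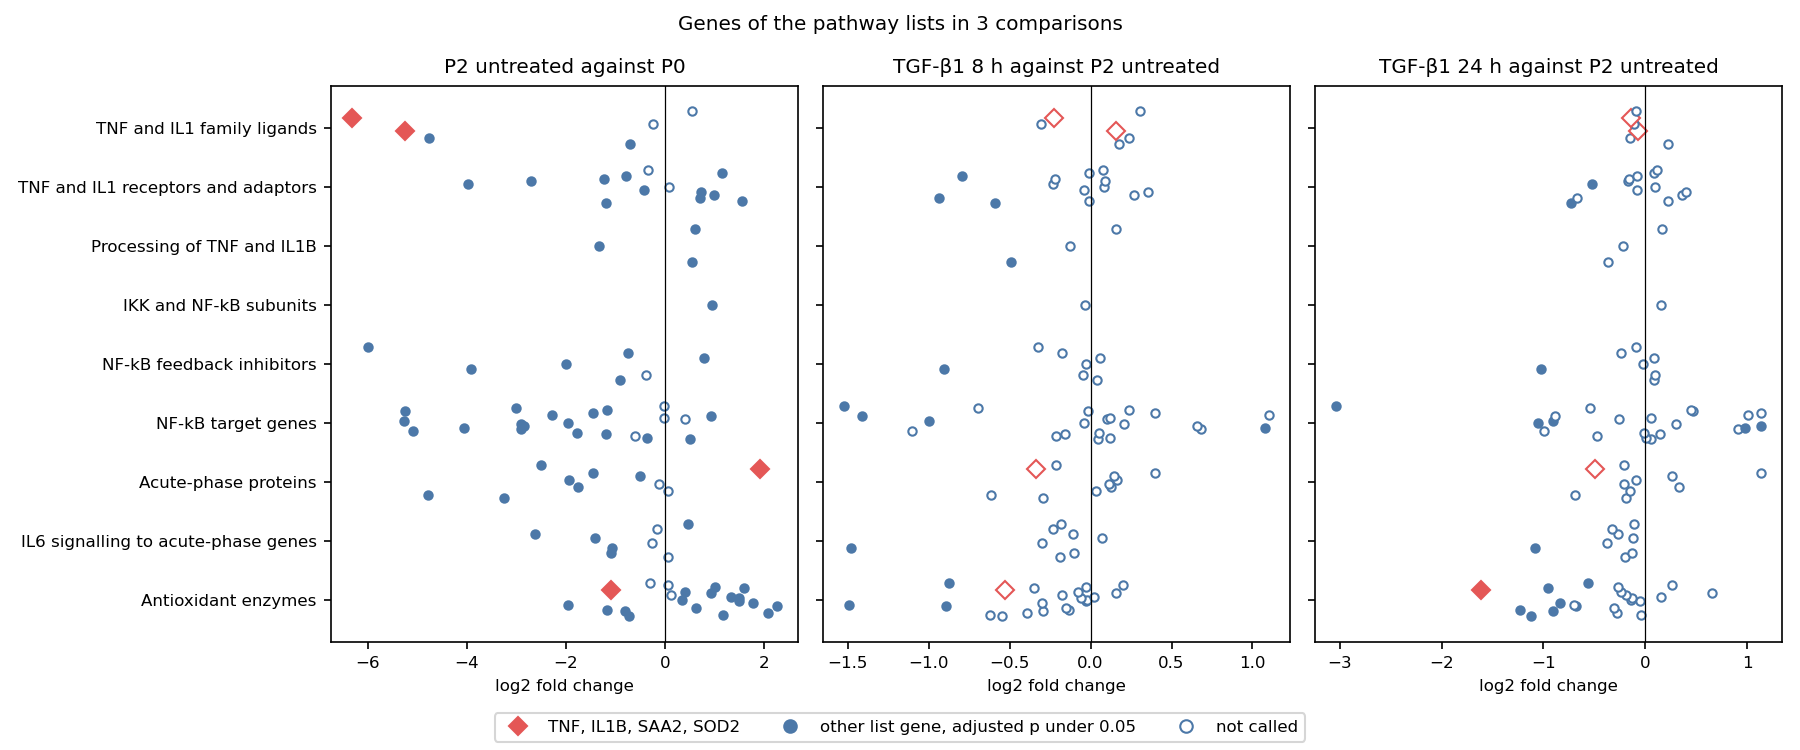
Log2 fold change (horizontal axis, a scale of its own in each panel) of every tested gene of 9 pathway lists in culture and at 8 h and 24 h of TGF-β1; red diamonds are TNF, IL1B, SAA2 and SOD2, blue circles other genes, and filled symbols have an adjusted p under 0.05. In culture most NF-kB targets and feedback inhibitors lie left of 0 and SAA2 lies right of it, and at 24 h SOD2 is the only filled diamond.

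The members were also compared with all other genes by Pearson correlation of log2 values over the 12 arrays. These correlations mostly carry the gap between P2 and P0 arrays, and 731 of 6011 genes correlated with TNF at over 0.9. Most like TNF were CLEC3B, NFIL3, APOE, RARRES2 and FMO1 (r from 0.996 to 0.999). Most like IL1B were RGS1, CD74, C14H10orf99, CH25H and RRAD (0.994 to 0.998). Most like SAA2 were TCF19, MCM2, DCBLD2, NUSAP1 and IQGAP3 (0.971 to 0.992). SOD2 had fewer close neighbours, 94 genes at over 0.9, and most like it were EPHX1, PDPN, CLDN11, NUCKS1 and CAT (0.963 to 0.975).

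Within the 9 P2 arrays, after group means were subtracted, the members followed the replicate numbers in opposite ways. SOD2 and both SAA2 probe sets were highest in replicate 3 of all 3 P2 groups, whereas both IL1B probe sets were lowest there. TNF was lowest there too, at values under the control level. Over these 9 arrays SOD2 correlated at 0.86 with the brighter SAA2 probe set and at 0.74 with the dimmer one. The 2 SAA2 probe sets correlated with each other at only 0.42. Arrays of 1 number resembled each other, so that 3 numbers stand behind the 9 points. Endothelial markers were lowest on the same 3 arrays, and their part in these differences was not tested. On this measure 146 of 6011 genes correlated at over 0.9 with SOD2, 102 with the brighter SAA2 and 131 with the brighter IL1B probe set. High values were thus common, and the genes named are only the highest. The genes most like SOD2 were PABPN1, PTGES3, KPNB1, DNMT1 and RHOA (0.978 to 0.988), and most like SAA2 were MRE11, ALMS1, HMBOX1, FBXO44 and LCORL (0.972 to 0.979). Those most like IL1B were STT3B, RPS23, ALDH1B1, INHA and C5H12orf45 (0.972 to 0.987). No such genes are given for TNF, whose P2 group means all lay under the control level.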

How the data were processed

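The authors deposited a table of log2 values, with a row per probe set and a column per array, and the submitters' processing notes name GCRMA. Array medians lay between 5.87 and 5.94, so values were used as deposited. No source used here gives scan dates, so P0 and P2 arrays cannot be told apart from scan batches. With 3 arrays in a group, the number of arrays limits the precision (median SE of a log2 fold change 0.159).

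The 64 control probe sets were left out. Probe sets over log2 4 in at least 3 arrays were tested: 17638, which gave 6012 genes with 1 symbol (platform annotation, with no symbol altered by a match of Entrez IDs to RefSeq). A gene of a list was represented by its single-symbol probe set with the highest mean. Where 1 group mean lay under the control level, the bound runs from the other mean to that group's values raised to the control level. A model with 1 mean per group took all 12 arrays (lmFit and eBayes of limma 3.58.1, under R 4.3.3), tests were two-sided, and p-values were Benjamini-Hochberg adjusted over all tested probe sets. The pipeline was tested on simulated data.

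P2 arrays of the same number correlated at 0.348 to 0.679 after group means were removed (9 pairs), and P2 arrays of another number at -0.513 to 0.0796 (18 pairs). P0 with P2 arrays correlated at most at 0.0158 for the same number and at most at 0.114 for another. Replicate numbers were therefore taken to pair the P2 arrays only, from this check and not from the labels. The main fit and its calls leave this pairing out, and among the fits only the block fits use it.

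The members, the lists and the tests were chosen with earlier results of these data known. Lists leave out the 4 genes. Named were all 6 probe sets, up to 4 called genes with the largest change per list and comparison (or the smallest p where none was called), and the 5 genes most like each member (for TNF over all arrays only). Genes outside this rule serve as examples or were named after their values were seen.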

Additional observations from a re-analysis of the deposited data

Results flagged for a closer look

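VCAM1 was the 1 named gene whose response to TGF-β1 differed between the times by the test of the difference itself, the comparison of 24 h with 8 h. Its 24 h effect was lower than its 8 h effect by -1.51 on the log2 scale (SE 0.223, adjusted p = 0.0231, 3 against 3 arrays). VCAM1 read 11.30, 11.31 and 10.39 at 24 h, against 12.55, 12.34 and 12.64 at 8 h. The call was lost without any 1 of the 8 h arrays (adjusted p = 0.118, 0.0536 and 0.11 for replicates 1, 2 and 3) and without all P2 arrays numbered 3 (0.0529). It was also lost with P2 arrays alone (adjusted p = 0.0807) and with values raised to the control level (0.0724).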

How the results depend on the processing

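In culture all 6 probe sets kept their direction and call under all 20 alternatives (19 for the dimmer SAA2 probe set, which fails the stricter filter at log2 6), and so did all 38 named list genes that were called. TNF ran from -6.39 to -6.02 and the brighter SAA2 probe set from 1.80 to 2.08. The fall of SOD2 at 24 h against untreated cells held under all 22 alternatives (-1.81 to -1.43). TNF, IL1B and the dimmer SAA2 probe set were called under TGF-β1 in no fit. The brighter SAA2 probe set was called at 24 h with array weights (-0.72, adjusted p = 0.0228) and ran from -0.78 to -0.30 when arrays were left out. SOD2 between 24 h and 8 h was called with array weights (-1.24) and with the replicate block (-1.09 in both block fits), and ran from -1.29 to -0.90 when arrays were left out. At 8 h it was called in the block fit of P2 arrays (-0.53). The block changed no other call of the 6 probe sets. Over all probe sets, 894 calls at 8 h became 1463 with array weights and 2200 in the block fit of P2 arrays, and ranged from 265 to 988 when arrays were left out. The 1498 calls at 24 h became 2274 and 3519 and ranged from 762 to 1398. The 41 calls between 24 h and 8 h became 25 without the filter, 23 with values raised to the control level, 109 in the block fit of all arrays, 247 with array weights, 20 with P2 arrays alone and 430 in the block fit of P2 arrays, and ranged from 4 to 49 when arrays were left out. Calls of list genes under TGF-β1 were less stable: 2 of 14 at 8 h and 8 of 15 at 24 h held in every fit that left out arrays. The causes were not tested.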
